A study of Mus musculus with 6 samples.

Results

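The genes described here are 36 genes of glycolysis and of the transcriptional response to low oxygen, followed by symbol through every cell class of mouse fracture callus. All 36 were found among the 52081 gene identifiers that the 6 libraries share. They were grouped by function, and the list was drawn up with earlier results of these data known. Glycolysis splits glucose into pyruvate in the cytosol, and lactate dehydrogenase turns pyruvate into lactate when it is not sent to the mitochondria. Hypoxia-inducible factors (HIF) are stable when oxygen is scarce, because the prolyl hydroxylases that mark their alpha subunits for destruction need oxygen, and they raise the transcription of glucose transporters, glycolytic enzymes and genes of adaptation to low oxygen. Fracture cartilage has no vessels of its own and is known to rely on glycolysis, whereas bone forms beside invading vessels.

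Calluses of femoral fractures were taken at 14 days post-fracture (dpf) from 12-week-old mice, and callus was dissociated and sequenced as a 3′ single-cell library in which transcripts are counted by unique molecular identifiers (UMIs). There were 3 control libraries (Piezo1 f/f, labelled wt) and 3 libraries labelled knockout (Piezo1 Col2a1, from Piezo1 f/f mice mated with Col2CreER T2 mice). In the knockout mice tamoxifen lets a Cre recombinase under the Col2a1 promoter delete Piezo1, a mechanosensitive ion channel, in cells that use that promoter. Both genotypes were given tamoxifen, 75 mg/kg daily over 5 days that began on day 5. The protocol speaks of callus from each mouse, but the study's sections differ on the number of animals, so whether each library is 1 mouse is not settled, and p-values measure the spread between libraries. The labels of the knockout libraries write the deleted gene as Piezo3. The genotypes are therefore given as the methods of the study have them.

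The libraries held 57626530 to 103784364 UMIs, and 3068 to 10025 cells per library were kept. The 2 libraries of replicate 1 were counted with another software version than the others. Those of replicate 3 were counted with another gene list. Any pair of libraries shared at most 0.38% of its cell barcodes. Levels are given as CPM, the UMIs of a gene per 1000000 UMIs of the class in a library. Piezo1 stood at 67.0, 42.4 and 52.8 CPM in the chondrocyte-like and hypertrophic chondrocyte (HTC)-like cells, summed, of controls 1 to 3 and at 131, 54.6 and 47.0 in knockouts 1 to 3. The ranges of the labels overlap, and the highest value was in knockout 1. Where the counted 3′ tags lie relative to the deleted part is not given in the sources used here, so these values neither check the deletion nor the labels, and knockout below stands for the label. Cartilage RNA found in other cells differed between libraries. The summed level of 9 cartilage genes in neutrophil-like cells was 8415, 2064 and 1227 CPM in controls 1 to 3 and 7015, 46.6 and 7236 in knockouts 1 to 3. The part of such RNA in the levels below was not tested. The 33 chondrocyte-like cells of knockout 2 stood apart: 14 chondrocyte markers summed to 28115 CPM, against 53079 to 105761 CPM in the other libraries, and 12 osteoblast markers to 71569 CPM, against 11719 to 45813 CPM. Without knockout 2 the core enzyme log2 ratios described below were -0.50 for HTC-like and -1.24 for osteoblast-like over chondrocyte-like cells, and 0.76 for chondrocyte-like and HTC-like over endothelial-like cells.

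Cells were grouped into classes by marker genes, without the 36 genes among those used for clustering, and UMIs were summed per library and class. A level is the CPM of that class in that library, for libraries with at least 20 cells of the class. Since the classes come from the expression of the same cells, differences between classes are described and not tested. A gene's level in 1 class is compared with the same gene's level in another class, and different genes are not compared.

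HIF is known to bind the letters ACGTG or GCGTG, the core of the hypoxia response element. The 250 bases before the start were read in RefSeq promoter windows (GRCm38.p6), and 33 of the 36 genes had a window. Either motif, on either strand, was present for 29 of the 33 genes (87.9%) and for 41.5% of all 27025 genes with a window. Windows of the 36 genes held a median of 14 CG pairs, and all windows a median of 6. The motifs contain a CG pair, so this measure moves with the share. Gpi1, Tpi1, Eno2 and Car12 had no match in the window. A match is a matter of letters and does not show binding. The windows of Bnip3 and Pgk1, both high in cartilage, of Ankrd37, high in vessel cells, and of Car12, high in cartilage and bone with no match, are shown 5′ to 3′ on the strand of the gene, with matches in capitals. The palindrome CACGTG, which holds ACGTG on both strands, was counted once.
Bnip3, chr7:138909507-138909756, minus strand, 4 matches: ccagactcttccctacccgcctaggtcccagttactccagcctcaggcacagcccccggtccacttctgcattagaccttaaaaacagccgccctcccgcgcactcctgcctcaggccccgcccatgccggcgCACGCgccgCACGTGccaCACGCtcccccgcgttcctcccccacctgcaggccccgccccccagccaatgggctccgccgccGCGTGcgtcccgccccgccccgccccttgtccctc
Pgk1, chrX:106186850-106187099, plus strand, 2 matches: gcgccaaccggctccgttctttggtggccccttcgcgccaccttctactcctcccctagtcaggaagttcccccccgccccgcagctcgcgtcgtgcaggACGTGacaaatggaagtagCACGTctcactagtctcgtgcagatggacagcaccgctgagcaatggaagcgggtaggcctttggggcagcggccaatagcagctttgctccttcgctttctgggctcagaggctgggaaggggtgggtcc
Ankrd37, chr8:45999851-46000100, minus strand, 4 matches: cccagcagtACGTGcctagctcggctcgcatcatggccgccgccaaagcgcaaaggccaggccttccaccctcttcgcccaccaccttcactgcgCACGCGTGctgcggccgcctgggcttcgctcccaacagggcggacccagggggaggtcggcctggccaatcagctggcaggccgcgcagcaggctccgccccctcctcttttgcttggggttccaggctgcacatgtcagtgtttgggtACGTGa
Car12, chr9:66713436-66713685, plus strand, 0 matches: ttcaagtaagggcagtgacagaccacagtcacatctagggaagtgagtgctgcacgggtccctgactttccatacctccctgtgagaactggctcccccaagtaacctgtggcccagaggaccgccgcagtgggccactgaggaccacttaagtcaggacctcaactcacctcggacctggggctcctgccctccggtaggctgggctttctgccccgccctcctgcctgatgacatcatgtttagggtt

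The 36 genes differed in how widely they were found over the classes. In 21 classes with at least 3 libraries, 34 of the 36 genes reached at least 10 CPM in their highest class. Of these, 11 were at least 4 times as high in the highest class as in the median class: Slc2a3, Pfkfb4, Aldoc, Slc16a3, Pdk4, Epas1, Egln3, Bnip3, Ankrd37, Ndrg1 and Car12. The same held for 38.9% of the 12820 genes of that level, so the share among the 34 was below that among all genes. Of the 2 genes below that level, Car9 reached 7.92 CPM in dendritic-like cells and Eno2, the neuronal enolase, 7.7 CPM in mesenchymal stem cell (MSC)-like cells.

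**Figure D1:**
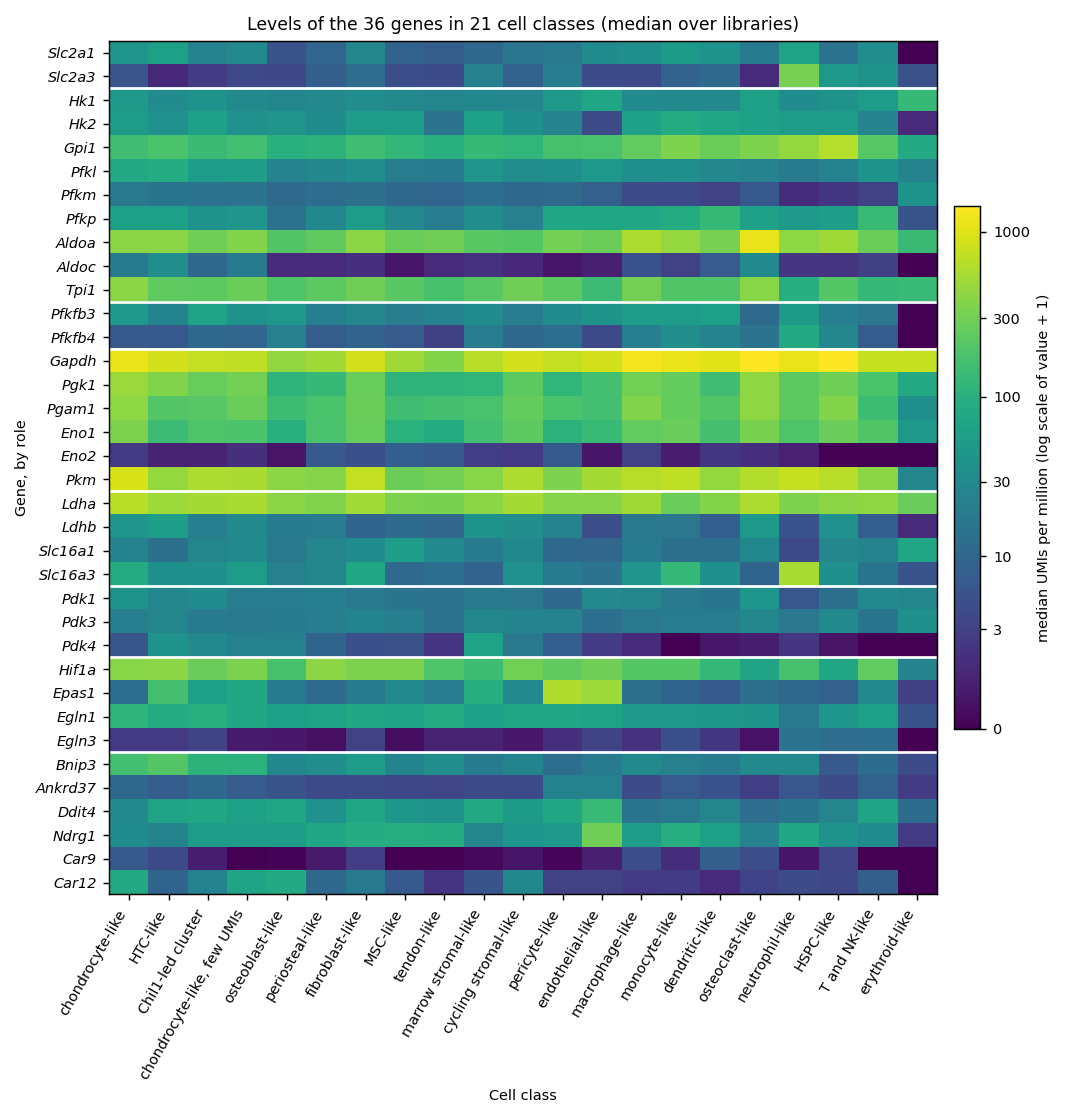
Median level over libraries of each of the 36 genes (rows, grouped by role) in 21 cell classes (columns), as CPM on a logarithmic color scale of the value plus 1. Slc2a3 and Slc16a3 stand out in neutrophil-like cells (320.0 and 546 CPM), Epas1 in pericyte-like and endothelial-like cells (604 and 496), and the enzymes Gapdh, Pgk1 and Ldha are present in every class.

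The glucose transporters differed in where they were found. Slc2a3, which encodes GLUT3, a high-affinity transporter (chr6:122727809-122801640, minus strand, GRCm38), was read in neutrophil-like cells at 441, 351 and 329 CPM in controls 1 to 3 and at 226, 312 and 206 CPM in knockouts 1 to 3. Its lowest neutrophil-like library was above every library of the other 20 classes. The hematopoietic stem and progenitor cell (HSPC)-like cells came next, at a median of 47.3 CPM over 4 libraries, and macrophage-like cells stood at 1.91 to 5.33 CPM. The HSPC-like cells were rich in neutrophil granule RNA. Its 6 genes summed to 126956 to 272387 CPM there, against 153280 to 355127 CPM in neutrophil-like cells. The 2 classes are thus close to each other by these genes. Slc2a1, which encodes GLUT1, was spread over more classes, with medians of 68.3 CPM in neutrophil-like, 60.8 in HTC-like, 50.8 in monocyte-like and 43.0 in chondrocyte-like cells. The ranges of those classes overlapped. Osteoblast-like cells held 2.35 to 8.67 CPM of Slc2a1, and chondrocyte-like cells of the same library held more in all 6 libraries, with a mean log2 ratio of -2.47 ± 0.47 (SD, n = 6) for osteoblast-like over chondrocyte-like cells.

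**Figure D2:**
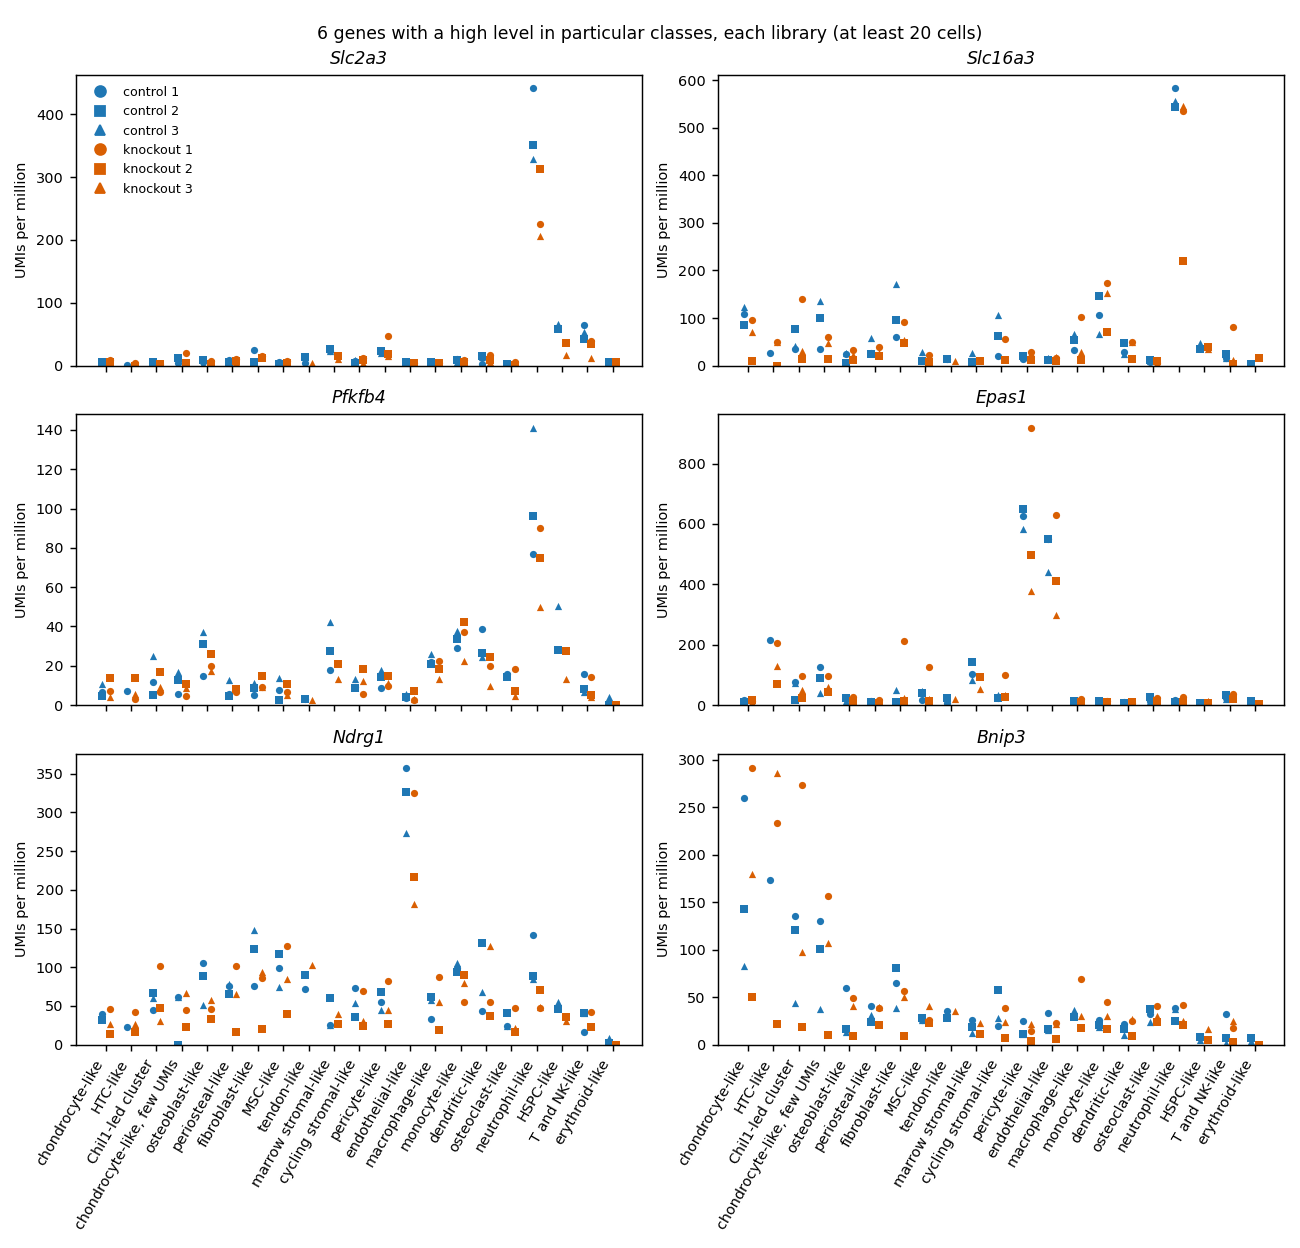
CPM of 6 genes (vertical axis, linear, from 0) in 21 cell classes (horizontal axis), with 1 point per library with at least 20 cells of the class. Color gives the genotype label and shape the replicate number, and Slc2a3, Slc16a3 and Pfkfb4 are highest in neutrophil-like cells, Epas1 in pericyte-like and endothelial-like cells, Ndrg1 in endothelial-like cells and Bnip3 in chondrocyte-like and HTC-like cells.

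Among the enzymes of the preparatory phase, which spends ATP to make triose phosphates, several had a class of their own. Gpi1, glucose-6-phosphate isomerase, was highest in HSPC-like cells, at 630.0, 539, 676 and 628 CPM in the 4 libraries with enough of them, and neutrophil-like cells followed at 408 to 610 CPM. Both classes are rich in neutrophil granule RNA, as given above. Aldoa, the main aldolase, was highest in osteoclast-like cells, at 1064, 999 and 1091 CPM in controls 1 to 3 and 1151, 1192 and 1328 CPM in knockouts 1 to 3, above every library of the other 20 classes. Aldoc, a second aldolase isoform, was high in HTC-like cells (median 34.3 CPM), osteoclast-like cells (31.5 CPM) and chondrocyte-like cells (19.4 CPM), while endothelial-like cells held 0.475 to 1.53 CPM. The aldolase pair thus shared only the osteoclast-like cells among their highest 2 classes. Aldoc in HTC-like cells was at 41.1, 27.5, 8.31 and 64.5 CPM in control 1 and knockouts 1 to 3, and in chondrocyte-like cells it ran from 4.53 CPM in control 3 to 32.4 CPM in control 1.

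Hexokinases, which trap glucose in the cell, were complementary in endothelial-like cells. Hk2, the inducible isoform, was at 1.82 to 7.13 CPM in the endothelial-like cells of the 6 libraries, and every other class but the erythroid-like cells had a higher median. Hk1 had its second highest median there, at 70.7 CPM, after 128 CPM in erythroid-like cells. The erythroid-like cells, with 3 libraries, were also highest in Pfkm, the muscle isoform of phosphofructokinase (16.8 to 52.7 CPM), and in Slc16a1, the lactate and pyruvate transporter MCT1 (39.3 to 128 CPM), but these rest on 47 and 103 UMIs in all. Pfkl, the liver isoform, had its 2 highest medians in HTC-like (88.2 CPM) and chondrocyte-like cells (80.3 CPM), and Pfkp, the platelet isoform, in T and NK-like (133 CPM) and dendritic-like cells (128 CPM). Of the bifunctional enzymes that set the level of the phosphofructokinase activator fructose 2,6-bisphosphate, Pfkfb4 was at 49.7 to 141 CPM in neutrophil-like cells and the highest class in all 6 libraries. Pfkfb3 had no class above the others: the top median was 64.8 CPM in a cluster led by Chil1, whose range lay above that of 1 other class.

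Most genes of the payoff phase, which yields ATP and pyruvate, and of lactate dehydrogenase were highest in cartilage or osteoclast-like cells, with the exception of Eno2, given above. Pgk1, Eno1, Pkm and Ldha had their highest median in chondrocyte-like cells (477, 344, 909 and 677 CPM), Gapdh and Pgam1 in osteoclast-like cells (1430 and 429 CPM), and chondrocyte-like and osteoclast-like cells took the first 2 places for Pgk1, Pgam1, Eno1 and Tpi1, the triose phosphate isomerase. Many classes overlapped them: the range of 4 to 13 of the other 20 classes lay below that of the highest class for these genes. Ldhb, the lactate dehydrogenase subunit that favors pyruvate, was highest in HTC-like cells (55.9 CPM) and at a mean of 4.85 CPM in endothelial-like cells.

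Summed over 17 core enzymes, osteoclast-like cells had the highest level, at 6138, 5546 and 5511 CPM in controls 1 to 3 and 5617, 6673 and 6893 CPM in knockouts 1 to 3. Chondrocyte-like cells followed at 6211, 4638 and 4454 CPM and at 5926, 3476 and 6121 CPM. These ranges overlapped. Those of the HSPC-like, macrophage-like, monocyte-like and HTC-like cells and of the Chil1-led cluster also reached into the osteoclast-like range, while the highest neutrophil-like library, at 4536 CPM, was below it. At the other end stood erythroid-like cells (median 1759 CPM, 3 libraries), tendon-like cells (2066 CPM, 3 libraries) and osteoblast-like cells, at 2203, 1717 and 2004 CPM in controls and 2669, 2124 and 3110 CPM in knockouts. The highest osteoblast-like library was below the lowest chondrocyte-like library.

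**Figure D3:**
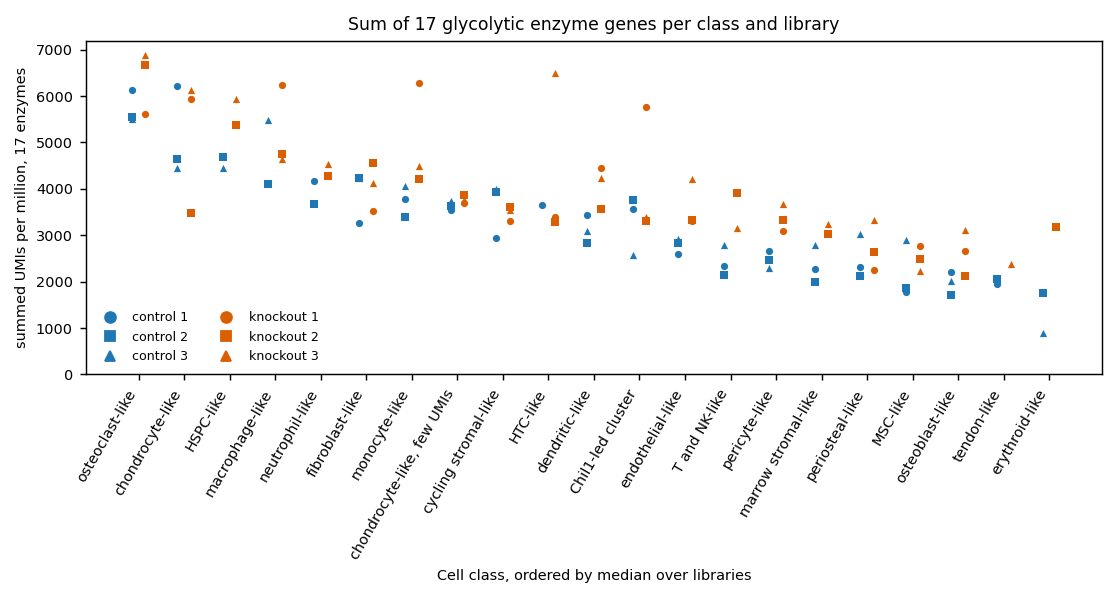
Sum of CPM over 17 glycolytic enzyme genes (vertical axis, from 0) per cell class, ordered by the median over libraries; each point is a library with color for the genotype label and shape for the replicate number. Osteoclast-like libraries lie between 5511 and 6893 and osteoblast-like libraries between 1717 and 3110.

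Osteoblast-like and chondrocyte-like cells of the same library were then set side by side, since both build skeletal matrix in the callus. The core enzymes were lower in osteoblast-like cells in 6 of 6 libraries, with a mean log2 ratio of -1.15 ± 0.29 (SD, n = 6), while the median gene of at least 5 CPM stood at -0.06. Of 33 of the genes with at least 5 CPM, 19 were lower in osteoblast-like cells in every library, against 19.4% of all genes of that level, and 1 was higher in every library, against 11.6%. Among the 19 were Pgk1 (mean log2 ratio -1.80 ± 0.43), Eno1 (-1.53 ± 0.35), Gapdh (-1.32 ± 0.45), Ldha (-0.80 ± 0.22) and, outside glycolysis, Bnip3 (-2.45 ± 0.34), Hif1a (-1.14 ± 0.55) and the prolyl hydroxylase gene Egln1 (-1.01 ± 0.49). The gene that was higher was Pfkfb4, at 14.9 to 37.0 CPM in osteoblast-like and 4.23 to 13.6 CPM in chondrocyte-like cells. These ranges do not overlap. With TMM scaling, 16 genes were lower in every library, no longer with Hif1a, Egln1 and Tpi1, and Epas1 joined Pfkfb4 as higher in every library. The shares of all genes above were counted without that scaling. Of 28 further genes of the pathway that passed 5 CPM, 7 were lower in every library and 2, Eno3 and Hif1an, were higher.

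HTC-like cells could be set beside chondrocyte-like cells in 4 libraries, control 1 and the 3 knockouts. Their core enzyme sum was at a mean log2 ratio of -0.39 ± 0.46 (SD, n = 4), higher in 1 and lower in 3 libraries, so that no direction stood out from the spread. Lower in every library were 7 of 33 genes, against 19.2% of all genes, among them Slc16a3 (mean log2 ratio -1.76 ± 1.34), Eno1 (-0.90 ± 0.70), Pgam1 (-0.71 ± 0.38) and Tpi1 (-0.66 ± 0.49). Higher in every library were 4 genes, against 26.6% of all genes: Epas1, Pdk4, Ddit4 and Hif1a.

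Epas1 encodes HIF-2α, the alpha subunit known for its role in vessels and in hypertrophic cartilage (chr17:86753700-86833410, plus strand). It was at 216, 205, 69.2 and 129 CPM in the HTC-like cells of control 1 and knockouts 1 to 3, and at 6.90 to 16.7 CPM in chondrocyte-like cells, which do not overlap, with a mean log2 ratio of 3.19 ± 0.81 (SD, n = 4). A list of 10 endothelial markers summed to 30 to 83.1 CPM in HTC-like and 23.1 to 75.5 CPM in chondrocyte-like cells, against 7706 to 8906 CPM in endothelial-like cells, and 8 pericyte markers summed to less in HTC-like (169 to 360.0 CPM) than in chondrocyte-like cells of the same library. Pdk4 encodes a kinase that inhibits pyruvate dehydrogenase in mitochondria. It was at 56.2, 78.1, 13.8 and 24.8 CPM in the same HTC-like libraries and was above chondrocyte-like cells in each (mean log2 ratio 1.76 ± 0.42). Marrow stromal-like cells had the highest Pdk4, at 31.2 to 86.0 CPM over 5 libraries. The related kinases had flatter profiles: Pdk1 was highest in osteoclast-like cells (median 44.9 CPM) and Pdk3 in erythroid-like cells (37.6 CPM), where its range overlapped every other class. Hif1a, the gene of HIF-1α, differed little between the stages, with means of 367 CPM in HTC-like and 318 CPM in chondrocyte-like cells of these libraries (mean log2 ratio 0.22 ± 0.11). With TMM scaling, Hif1a was no longer higher in every library, while Epas1, Pdk4 and Ddit4 were, and 12 genes were lower in every library. The shares of all genes given for these stages are without TMM scaling. Of 29 further pathway genes, 8 were higher and 8 lower in every library. Vegfa and Adm, which encode secreted factors that act on vessels, were among the higher, and the collagen prolyl hydroxylase genes P4ha1 and P4ha2 among the lower.

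Some genes of the hypoxia response had their highest median in vessel cells. Epas1 was highest in pericyte-like cells, at 625, 649 and 582 CPM in controls 1 to 3 and 918, 496 and 379 CPM in knockouts 1 to 3, and endothelial-like cells of the same libraries followed at 550.0, 551 and 442 CPM and at 628, 412 and 299 CPM. These ranges overlap each other and no other class. Ndrg1, a gene induced by stress and low oxygen (chr15:66929318-66969640, minus strand), was at 358, 326 and 273 CPM in endothelial-like controls and 325, 216 and 182 CPM in endothelial-like knockouts, above every library of the other 20 classes. Ankrd37, an ankyrin repeat gene induced by low oxygen, had its 2 highest medians in pericyte-like (23.7 CPM) and endothelial-like cells (23.5 CPM), and was at 18.4, 23.8 and 29.5 CPM in endothelial-like controls and 23.8, 6.93 and 23.3 CPM in endothelial-like knockouts, and Ddit4, an inhibitor of mTOR signaling, its highest in endothelial-like cells (90.8 to 183 CPM). The Ddit4 range overlapped other classes, among them fibroblast-like (36.4 to 179 CPM) and marrow stromal-like cells (63.3 to 173 CPM). The Ankrd37 ranges overlapped those of other classes too, such as monocyte-like cells (3.67 to 23.2 CPM). In pericyte-like cells Ndrg1 was at 27.1 to 82.4 CPM. Ddit4 also answers to stress. A list of 10 dissociation response genes summed to 2868 to 7569 CPM in endothelial-like and 1281 to 5884 CPM in chondrocyte-like cells, with the chondrocyte-like sum above the endothelial-like sum in control 1 and knockout 1, and its part was not tested.

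Chondrocyte-like and HTC-like cells as 1 class held more core enzyme RNA than endothelial-like cells in 6 of 6 libraries, with a mean log2 ratio of 0.64 ± 0.37 (SD, n = 6) and a range of 0.04 to 1.17. The median gene of at least 5 CPM stood at -0.40. Of 32 genes, 14 were higher in every library, against 16.7% of all genes, and 6 were lower, against 50.4%. Hk2 (mean log2 ratio 3.36 ± 0.35), Aldoc (3.24 ± 1.03), Ldhb (2.95 ± 0.36) and Bnip3 (2.94 ± 0.43) had the largest ratios among the 14, and Epas1 (-4.07 ± 0.93), Ndrg1 (-3.13 ± 0.39), Ddit4 (-1.87 ± 0.61) and Ankrd37 (-1.15 ± 0.29) the largest downward among the 6. Car12, at 3.26 ± 1.96, was higher in 5 of 6 libraries. Hk1 and Gpi1 were also lower, but not in every library with TMM scaling, under which 18 genes were higher and 4 lower in every library. The shares of all genes given above are without TMM scaling, so they are no background for these counts.

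Within the endothelial-like cells, Epas1 and Ndrg1 followed different clusters. The cluster led by Gja4 and Gja5, gap junction genes known from arteries, held Epas1 at 1443, 1339 and 1449 CPM in controls and 1920, 1137 and 744 CPM in knockouts. In each of the other 5 clusters no library was above 472 CPM, and the cluster led by Ccl21a and Mmrn1, genes known from lymphatic vessels, was lowest, at 35.8 to 106 CPM in 3 libraries. Ndrg1, in contrast, was at 451 to 596 CPM in the Ccl21a cluster and at 374 to 801 CPM in the cluster led by Selp and Ackr1, genes known from venules, but at 140.0 to 306 CPM in the Gja4 cluster and 157 to 333 CPM in the largest capillary cluster, led by Flt1, Kdr and Adgrl4. The ranges of the first pair and of the last pair do not overlap. Egln3, a prolyl hydroxylase and itself a HIF target, was at 5.73 to 9.12 CPM in the Selp cluster and at 0 to 2.40 CPM in the Gja4 cluster.

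**Figure D4:**
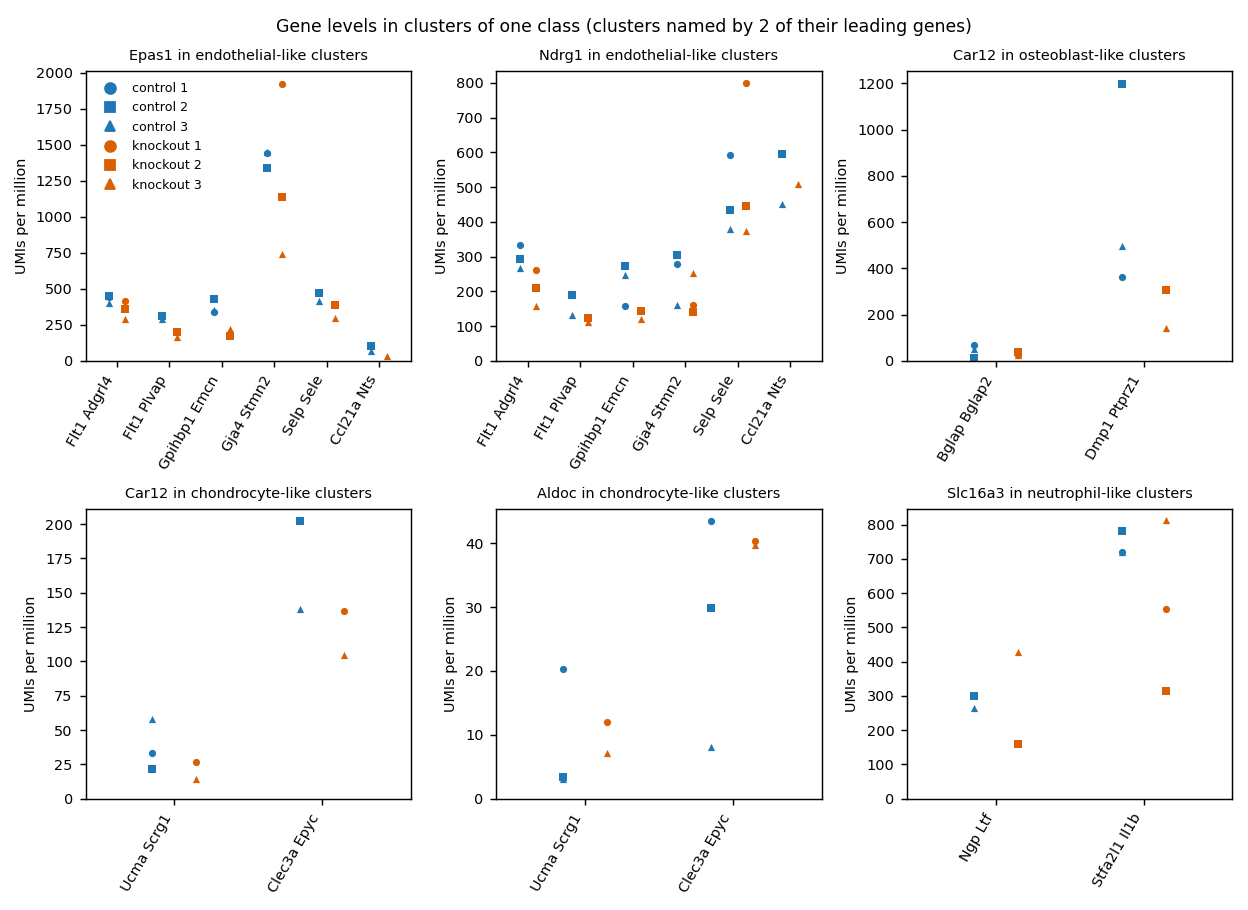
CPM (vertical axes, linear, from 0) of Epas1, Ndrg1, Car12, Aldoc and Slc16a3 in the clusters of 1 class (horizontal axes, named by 2 of their leading genes), with 1 point per library with at least 20 cells of the cluster, where color gives the genotype label and shape the replicate number. Epas1 peaks in the Gja4 cluster (744 to 1920), and Car12 is higher in the Dmp1 cluster (144 to 1196) than in the Bglap cluster (11.5 to 70.3).

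Neutrophil-like cells were marked by the transporters of glucose uptake and lactate export. Slc16a3, which encodes MCT4, the transporter that exports lactate (chr11:120948480-120960868, plus strand), was at 583, 544 and 557 CPM in neutrophil-like controls and 535, 220.0 and 547 CPM in neutrophil-like knockouts. Even the lowest of these, knockout 2, was above every library of the other 20 classes. Against macrophage-like cells of the same library, the mean log2 ratio was 3.55 ± 0.77 (SD, n = 6) for Slc16a3, 6.03 ± 0.71 for Slc2a3, 2.01 ± 0.23 for Pfkfb4 and 2.24 ± 0.83 for Egln3. With Slc2a1 and Gpi1 these made 6 of 30 genes that were higher in every library, against 14.9% of all genes, and the same 6 were higher with TMM scaling. Lower in every library were 9 genes, against 56.9% of all genes, among them Tpi1 (-1.82 ± 0.21), Slc16a1 (-2.08 ± 0.43) and the pyruvate dehydrogenase kinase Pdk1 (-1.73 ± 0.75). With TMM scaling 5 genes were lower in every library: Tpi1, Slc16a1, Pdk1, Ldhb and Egln1. The shares of all genes given here are without TMM scaling. The core enzyme sum had no firm direction: the mean log2 ratio was -0.24 ± 0.25 (SD, n = 6), and 0.18 with TMM scaling. The median gene stood at -0.86 before that scaling. Neutrophil granule RNA in macrophage-like cells had a median of 1092 CPM for 6 genes, against 241326 CPM in neutrophil-like cells. Its source was not tested.

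The 2 neutrophil-like clusters were not alike. The cluster led by Stfa2l1 and Il1b held Slc16a3 at 314 to 814 CPM, Bnip3 at 31.1 to 51.1 CPM and Ankrd37 at a median of 10.6 CPM. The cluster led by Ngp and Ltf, genes of the granules of immature neutrophils, held Slc16a3 at 160 to 429 CPM, Bnip3 at 6.96 to 18.3 CPM and Ankrd37 at a median of 1.64 CPM. In each of the 4 libraries with both, Slc16a3 and Bnip3 were higher in the first. Over both clusters, Egln3 was at 15.3, 12.6 and 16.3 CPM in controls and 41.6, 14.8 and 7.31 CPM in knockouts, and Pfkfb4 at 76.7, 96.1 and 141 CPM in controls and 90.2, 74.6 and 49.7 CPM in knockouts. The Slc2a3 ranges of the clusters overlapped, at medians of 323 and 296 CPM.

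Bnip3, which encodes a mitochondrial protein of mitophagy and is a well-known HIF target (chr7:138890836-138909519, minus strand), marked cartilage. It was at 260, 143 and 82.6 CPM in chondrocyte-like controls and 292, 49.7 and 180 CPM in chondrocyte-like knockouts, and at 173, 234, 22.1 and 286 CPM in the HTC-like cells of control 1 and knockouts 1 to 3. The library labelled knockout 2, whose chondrocyte-like cells held few chondrocyte and many osteoblast marker UMIs, was lowest in both classes. Osteoblast-like cells held 59.3, 16.8 and 13.7 CPM in controls and 48.8, 8.69 and 40.9 CPM in knockouts. The summed cartilage RNA in those osteoblast-like cells was 8510, 6285 and 4384 CPM in controls and 6640, 316 and 7542 CPM in knockouts, and was also lowest in knockout 2. Its part in the osteoblast-like level of Bnip3 was not tested.

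Car12, a membrane carbonic anhydrase that handles acid outside the cell (chr9:66713686-66766845, plus strand), had medians of 83.6 CPM in chondrocyte-like and 83.3 CPM in osteoblast-like cells. It varied within both. In osteoblast-like cells the cluster led by Dmp1 and Phex, genes known from osteocytes, held 363, 1196 and 498 CPM in controls and 307 and 144 CPM in knockouts 2 and 3, and the cluster led by Bglap and Ifitm5 held 70.3, 11.5 and 52.9 CPM in controls and 25.8, 38.2 and 26.7 CPM in knockouts. In chondrocyte-like cells the cluster led by Clec3a and Epyc held 105 to 202 CPM and that led by Ucma and Scrg1 14.2 to 58.1 CPM, which do not overlap. HTC-like cells stood lower, at 2.77 to 21.7 CPM. Fibroblast-like cells had a median of 17.8 CPM but reached 143 CPM in control 3 and 108 CPM in knockout 1, within the range of the osteoblast-like libraries. Aldoc followed the same order between the chondrocyte-like clusters, at medians of 39.7 and 7.15 CPM, and Slc2a1 at 63.1 and 27.8 CPM, whereas Ndrg1 had the opposite order, at 19.2 and 45.5 CPM.

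A further 1672, 74 and 249 cells in controls 1 to 3 and 1244, 515 and 352 cells in knockouts 1 to 3 fell into few-UMI clusters. These clusters were named by chondrocyte markers. They formed a class of their own among the 21 classes above and were not counted with the chondrocyte-like cells. In the few-UMI cells of knockout 2, however, the 14 chondrocyte markers summed to only 887 CPM, against 33711 to 122365 CPM in the other 5 libraries. The core enzyme sum of the few-UMI cells was 3549 to 3865 CPM in the 6 libraries. It was below the chondrocyte-like cells of 5 libraries and above those of knockout 2.

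The question behind the 2 groups is what follows when Piezo1 is deleted in cartilage. No gene of the 36 passed the threshold between genotype labels in any of 5 classes (edgeR quasi-likelihood F test on UMIs summed per library, 3 against 3, Benjamini-Hochberg adjustment over all genes tested, threshold 0.05). In the chondrocyte-like and HTC-like cells, which the Cre driver targets, 36 genes were tested, their adjusted p was 1 throughout, and their standard errors had a median of 0.43 on the log2 scale. No gene at all was called there (0% of 14781), although 333 genes had an unadjusted p under 0.05, and none of the 36 did. DESeq2 called 0 genes in that class. The median log2 fold change, knockout over control, was -0.05 over the 36 genes and -0.01 over all genes. Knockout 2 contributed only 56 cells to this class.

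In the other 4 classes edgeR likewise called no gene (0% of 10673, 13916, 12413 and 7751 genes in osteoblast-like, endothelial-like, macrophage-like and neutrophil-like cells), with 379, 768, 183 and 246 genes at an unadjusted p under 0.05. Among the 36 genes, 5 of 32 tested in osteoblast-like, 2 of 33 in endothelial-like, 1 of 36 in macrophage-like and 0 of 28 in neutrophil-like cells were at that level. DESeq2 called 1, 3, 3 and 1 genes of all genes in these classes and none of the 36. The median log2 fold change of the 36 genes was 0.03, -0.01, 0.17 and 0.20, against 0, 0.01, 0.01 and 0.03 over all genes. Of 43 further pathway genes found (of 44 listed), 24 to 36 were tested per class, and none passed the threshold in either direction.

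**Figure D5:**
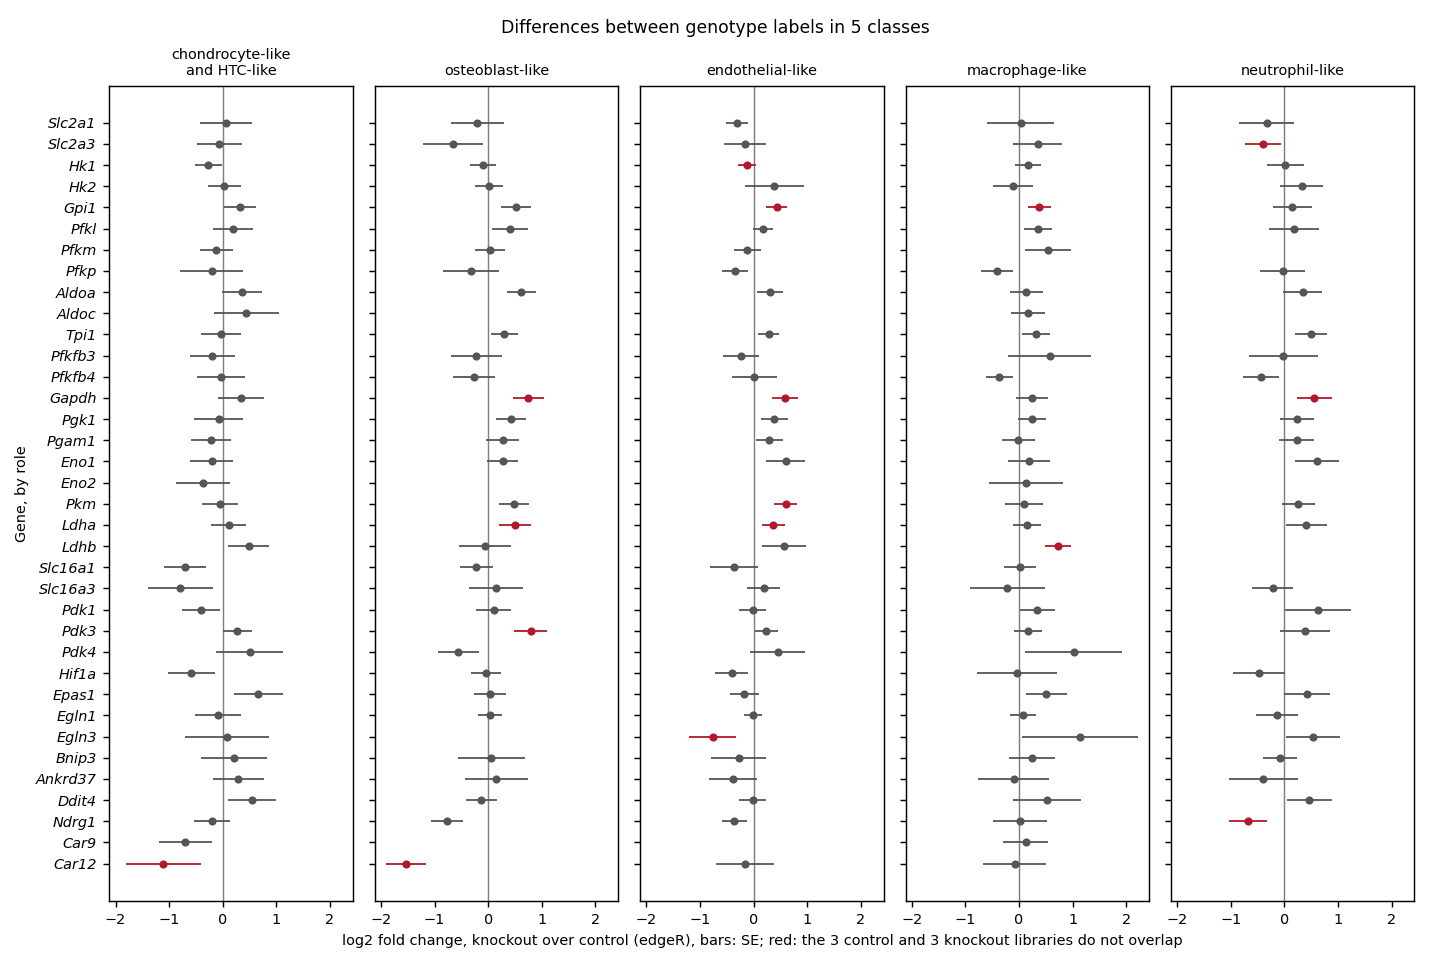
Log2 fold change of knockout over control (horizontal axis, edgeR fit, bars show the standard error) for the 36 genes by role (vertical axis) in 5 classes; red marks genes whose 3 control and 3 knockout libraries do not overlap. Car12 in osteoblast-like cells (-1.54 ± 0.37) lies farthest from 0 relative to its error, and no gene passed the adjusted threshold.

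Some genes had libraries that did not overlap between the labels, at rates to be read against all genes. In chondrocyte-like and HTC-like cells this was 1 of 36 genes, against 6.29% of all genes, in osteoblast-like cells 4 of 32, against 8.22%, in endothelial-like cells 6 of 33, against 11.4%, in macrophage-like cells 2 of 36, against 4.6%, and in neutrophil-like cells 3 of 28, against 8.54%.

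Car12 was lower in the knockout libraries without overlap in osteoblast-like cells and in chondrocyte-like and HTC-like cells as 1 class, but not in chondrocyte-like cells alone, where controls held 81.6 to 121 CPM and knockouts 1.51 to 85.5 CPM. Among the 15 classes with 3 libraries per label, it was lower without overlap in 1, the osteoblast-like cells, and higher in 1, the T and NK-like cells (2.65 to 8.01 CPM in controls, 8.16 to 28.3 CPM in knockouts). The T and NK-like values rest on 1 to 2 UMIs per control and 2 to 9 UMIs per knockout library. Of 8233 genes with a median over the classes of at least 10 CPM, 30.6% were higher in at least 1 class and 32.9% lower in at least 1, so such counts are common among them. Car12 was below that level and is not among those genes. The few-UMI chondrocyte-like cells, which are not among the 15, held 68.1 to 126 CPM in controls and 20 to 67.4 CPM in knockouts. Those of knockout 2 were low in chondrocyte markers, as given above. In osteoblast-like cells it was at 151, 231 and 101 CPM in controls and 44.4, 65.7 and 42.9 CPM in knockouts (log2 fold change -1.54 ± 0.37 SE, unadjusted p = 0.00214, adjusted p = 0.962 by edgeR). Its adjusted p was 0.233 by DESeq2 with the same filter on low counts, and 0.00453 by edgeR without that filter. The Dmp1 cluster, where Car12 was highest, made up 28.4%, 27.2% and 13.7% of the osteoblast-like cells of controls 1 to 3 and 17.4%, 10.2% and 14.7% of those of knockouts 1 to 3, and its part in the difference was not tested. In chondrocyte-like and HTC-like cells Car12 was at 107, 107 and 79.1 CPM in controls and 76.5, 1.95 and 46.8 CPM in knockouts (log2 fold change -1.11 ± 0.70 SE, adjusted p = 1 by edgeR). Without knockout 2 the log2 fold change was -0.62. HTC-like cells were 23 of the 56 cells of this class in knockout 2. Car12 was at 1.51 CPM in the chondrocyte-like and 2.77 CPM in the HTC-like cells of that library. The HTC-like value rests on 1 UMI. The part of the HTC-like share in the difference was not tested.

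Several glycolytic enzymes had higher values in the knockout libraries of classes outside cartilage, although none passed the threshold. Gapdh, the enzyme that oxidizes glyceraldehyde 3-phosphate (chr6:125161715-125166467, minus strand), was at 425, 311 and 312 CPM in osteoblast-like controls and 525, 465 and 678 CPM in osteoblast-like knockouts (log2 fold change 0.75 ± 0.29 SE, adjusted p = 0.962 by edgeR). In endothelial-like cells it was at 714, 780.0 and 812 CPM in controls and 1054, 907 and 1343 CPM in knockouts (0.58 ± 0.24 SE, adjusted p = 0.782). In neutrophil-like cells it was at 1120, 906 and 906 CPM and at 1397, 1282 and 1154 CPM (0.56 ± 0.32 SE, adjusted p = 1). In pericyte-like cells, which were not among the classes tested, it was at 596, 572 and 572 CPM in controls and 994, 878 and 1004 CPM in knockouts. In chondrocyte-like and HTC-like cells the labels overlapped (0.34 ± 0.43 SE). Of 15 classes with 3 libraries per label, Gapdh was higher in every knockout than in every control library in 7 and lower in 0, a count of 7 or more being reached by 0.267% of 8233 genes with a median over the classes of at least 10 CPM. Ldha did so in 5 classes (1.24% of genes reached 5), Gpi1 and Ldhb in 4 each (2.83% reached 4) and Aldoa and Pfkl in 3 each (6.38% reached 3). Gapdh and the others were chosen after their values were seen. The classes come from the same 6 libraries and are not independent of each other.

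The core enzyme sum was higher without overlap in 6 of the 15 classes. Single genes, over the 8233 compared, were higher in a mean of 0.56 classes and lower in a mean of 0.52. No such figure was computed for sums of genes. In endothelial-like cells it was 2780 ± 168 CPM in controls and 3610 ± 515 CPM in knockouts (SD, n = 3 each), in pericyte-like cells 2476 ± 182 and 3366 ± 286 CPM, in neutrophil-like cells 3849 ± 283 and 4362 ± 151 CPM, and in T and NK-like, dendritic-like and monocyte-like cells the ratio of the means was 1.51, 1.31 and 1.33. In chondrocyte-like cells it was 5101 ± 966 and 5174 ± 1474 CPM, a ratio of 1.01. No class had lower sums in the knockout libraries without overlap. Without Gapdh the sum was higher without overlap in 4 of the 15 classes. The cartilage, erythroid and dissociation response lists overlapped between the labels in all 15 classes, and the neutrophil list in 14.

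Ndrg1 and Slc2a3 had lower values in the neutrophil-like cells of the knockout libraries. Ndrg1 was at 142, 89.0 and 85.2 CPM in neutrophil-like controls and 47.8, 70.8 and 48.7 CPM in neutrophil-like knockouts (log2 fold change -0.68 ± 0.35 SE, adjusted p = 1 by edgeR). For Slc2a3 in the same cells, whose values are given above and do not overlap between the labels, edgeR gave -0.40 ± 0.33 SE on the log2 scale with an adjusted p of 1. The Ngp cluster made up 25%, 25.3% and 18.8% of neutrophil-like cells in controls and 3.92%, 39.8% and 55.7% in knockouts, so that knockouts 2 and 3 held more of that cluster and knockout 1 less. In control 1 this cluster had 10 cells and the other 30, and in knockout 1 it had 8 cells. The Ndrg1 and Slc2a3 values of control 1 rest on 37 and 115 UMIs.

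The difference between labels was also compared between the cells that the Cre driver targets and cells that it does not. None of 35 genes passed the threshold for a different response in chondrocyte-like and HTC-like cells than in neutrophil-like cells (edgeR interaction with the library as a block, 6 libraries, 0% of 12907 genes called, 920 genes at an unadjusted p under 0.05, lowest adjusted p among the 35 of 0.504). The lowest belonged to Car12, with a log2 difference of -1.91 ± 0.68 SE. DESeq2 called 0 genes.

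For several HIF-linked genes the libraries labelled knockout lay far apart from each other. Over the 15 classes with all 6 libraries, Hif1a and Slc2a1 were lowest in knockout 2 in 14 classes each, which 1.48% of 8233 genes reached, Bnip3 and Pfkfb3 in 13 (2.73%), and Pfkp and Slc16a3 in 12 (4.36%). Gapdh, Gpi1, Ldha, Ldhb, Slc2a3 and Pfkfb4 were lowest in knockout 2 in 0 classes. Of other genes tied above to low oxygen or HIF, Ndrg1 was lowest there in 10 classes and Egln1 in 7. Ankrd37 and Egln3 were lowest there in 5 each, Ddit4 in 3 and Epas1 in 2. The genes did not behave as 1 group. Knockout 1 was highest in 9 classes for Hif1a, 10 each for Slc2a1 and Pfkfb3, 6 for Bnip3, 3 for Pfkp and 7 for Slc16a3. The share of all genes was not computed for being highest. Hif1a, for instance, was at 142, 334 and 279 CPM in macrophage-like controls and at 591, 63.3 and 126 CPM in macrophage-like knockouts, and at 278, 431 and 306 CPM and at 339, 160 and 242 CPM in endothelial-like cells. Knockout 1, of the same label, had the highest macrophage-like value. Slc2a1 in macrophage-like cells ran the same way, at 21, 45.8 and 48.7 CPM in controls and 85.6, 13 and 28.6 CPM in knockouts. The dissociation response list was also lowest in knockout 2 over all its cells, at 1988 CPM against 4405 to 6731 CPM in the other 5 libraries, and so was cartilage RNA, at 507 CPM against 5492 to 49351 CPM. Their part in these levels was not tested.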

How the data were processed

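The deposited UMI count matrices of 6 callus libraries (3 control, 3 knockout) were used. The authors made these counts with Cell Ranger, per the file headers in version 6.1.1 for control 1 and knockout 1 and 6.1.2 for the other 4 libraries, and the submitters' notes name GRCm38. Barcodes with at least 500 UMIs, 200 genes and at most 20% mitochondrial UMIs were kept. The highest Scrublet scores were removed as doublets, at 0.8% per 1000 cells. Cells were integrated (Seurat 5.3.0, 2000 variable genes, 30 components), clustered (scanpy 1.11.5, leidenalg 0.10.2, 20 neighbours, resolution 0.8) and named where at least 3 listed markers were in 25% of cells at 2 times the level elsewhere. UMIs summed per library and class were tested with edgeR 4.0.16 (R 4.3.3), with DESeq2 1.42.0 as an alternative, using Benjamini-Hochberg adjustment over all genes tested. The script was tested on simulated data. Log2 ratios between classes used CPM plus 1. All 36 genes were accounted for, with library values for those called between labels or at least 4 times as high (10 CPM or more) in the highest as in the median class. Other genes given by library were chosen after their values were seen. A second Aldoa identifier with 13 UMIs was left out. The members and lists were chosen with earlier results of these data known.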

Additional observations from a re-analysis of the deposited data

How the results depend on the processing

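Of 135 alternatives to the main results, 132 kept their value within the limits set. Without a filter on low counts, 1 of the 36 genes (Car12) was called in osteoblast-like cells in place of 0, the single change of call among the named genes (239 of 240 kept theirs). With TMM scaling, chosen after seeing the data, the core enzyme log2 ratio was 0.18 for neutrophil-like over macrophage-like cells and 1.04 for cartilage over endothelial-like cells. Leaving out each single library in turn gave 0 of the 36 genes called in each of the 5 classes. The core enzyme log2 ratios were then -0.55 to -0.26 for HTC-like over chondrocyte-like and -1.24 to -1.08 for osteoblast-like over chondrocyte-like cells. They were -0.29 to -0.17 for neutrophil-like over macrophage-like and 0.53 to 0.76 for cartilage over endothelial-like cells. Same-numbered libraries correlated at -0.15 to 0.41 over 15 comparisons and 5 of 15 exceeded 0.1. Of these, 4 were the libraries of replicate 1 (0.15 to 0.41), which share Cell Ranger 6.1.1. The rule of every pair over 0.1 was not met, so the numbers were not taken to pair the samples, and a fit with the replicate number as a block called 0 genes of the 36 in each class. With 3 libraries a label and only 56 cartilage cells in knockout 2, a standard error of 0.43 on the log2 scale limits what could be detected.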
